A study of Mus musculus with 12 samples.

Results

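The replication-dependent histone genes are the clustered gene copies that supply most of the histone protein packed onto newly copied DNA. Members were chosen by name and by detection. A probe belonged to the set when its gene symbol was H1f1 to H1f5, H2ac, H2bc, H3c or H4c with a number, or H4f16, and 86 of the 32766 probes of the bead array met this rule, standing for 56 genes. The detection p of a probe is the share of negative-control signals at least as high as its own. A member probe was measured when this p was under 0.05 on at least 4 of 12 arrays. That left 67 probes of 48 genes, among 13876 measured probes and 7341 measured genes in all. A further 4 probes known only by an older histone cluster name were detected on 0 arrays.

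Whole embryos of the NOD mouse strain were taken at embryonic day 10.5. The control group was 4 pools of RNA, each from 4 embryos of 4 normal pregnancies. The diabetic group was 4 pools of the same make-up from pregnancies of diabetic dams, which had blood glucose above 250 mg/dL. The third group was 4 single embryos of diabetic pregnancies that had a defect of the neural tube, called NTD embryos here, each on an array of its own. NOD mice become diabetic spontaneously, and all groups share that strain. Diabetic dams were given gonadotropin from mare serum (5 units) before mating, and no label states whether the dams of control embryos were treated likewise. A single embryo and a defect cannot be told apart in these groups, because every other sample was a pool. The arrays measured RNA of all tissues at once, so fewer cells making a transcript and less transcript per cell cannot be told apart.

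A nucleosome is DNA wound around pairs of the core histones H2A, H2B, H3 and H4, and the linker histone H1 binds where the DNA enters and leaves it. Replication-dependent histone genes lie in clusters, are transcribed mainly in S phase, have no introns, and most of their transcripts end in a stem-loop bound by Slbp in place of a poly(A) tail. Many copies of a class encode the same or nearly the same protein, and rapidly dividing tissue such as the midgestation embryo uses many of them. The labels name a biotin amplification kit with 200 ng of total RNA, and how far it copies transcripts without a tail is not given in the sources used here.

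Promoters were looked up in RefSeq windows of 300 bases (250 before the start and 50 after it, build GRCm38.p6), which held 51 of the 56 genes in 52 windows. The octamer ATTTGCAT, the element that the factor Pou2f1 binds in H2B promoters, was in 7 of 12 H2B windows and 6 of 16 H2A windows, against 1.74% of all 32851 windows. The octamer was in 0 of 12 H4, 0 of 7 H3 and 0 of 5 H1 windows. The letters CCAAT were in every H1, H2A, H2B and H3 window but in 3 of 12 H4 windows, against 37.41% of all windows. The letters TATAAA were in 31 of the 52 windows, against 13.62% of all windows. The H1 box AAACACA was in 4 of 5 H1 windows, against 7.18%. The E2F-like letters TTTNGCGC were in 6 H2A and 4 H2B windows, against 1.38%. All motifs were searched on both strands, and no motif's letters contain those of another. Windows of neighbouring H2A and H2B genes can overlap, so the same site can count in both classes, as the E2F-like site between H2ac11 and H2bc11 does. The 6 promoters below belong to genes named in the results, H2bc18, H2bc7, H4c12 and H1f5 (lower in diabetic pools), H2bc8 (not called) and H1f2 (higher). Of these, H2bc18 passed detection almost only through the control pools, so nothing is read from its fall. Capitals mark the octamer, CCAAT and TATAAA on either strand and, in the H1 genes, the H1 box.
H2bc18, chr3:96269450-96269749, plus strand: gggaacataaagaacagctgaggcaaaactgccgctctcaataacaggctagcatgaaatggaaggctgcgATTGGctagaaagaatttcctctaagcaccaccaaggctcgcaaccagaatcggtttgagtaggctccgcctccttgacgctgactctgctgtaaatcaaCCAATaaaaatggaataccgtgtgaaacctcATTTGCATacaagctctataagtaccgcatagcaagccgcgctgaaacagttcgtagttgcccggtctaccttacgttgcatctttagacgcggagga
H2bc7, chr13:23574158-23574457, minus strand: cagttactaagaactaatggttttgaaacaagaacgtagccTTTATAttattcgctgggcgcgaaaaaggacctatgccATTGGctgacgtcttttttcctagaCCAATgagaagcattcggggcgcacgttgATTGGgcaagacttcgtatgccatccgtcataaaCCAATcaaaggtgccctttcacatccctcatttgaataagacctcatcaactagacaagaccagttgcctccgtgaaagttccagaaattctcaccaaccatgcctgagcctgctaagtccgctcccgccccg
H2bc8, chr13:23571150-23571449, plus strand: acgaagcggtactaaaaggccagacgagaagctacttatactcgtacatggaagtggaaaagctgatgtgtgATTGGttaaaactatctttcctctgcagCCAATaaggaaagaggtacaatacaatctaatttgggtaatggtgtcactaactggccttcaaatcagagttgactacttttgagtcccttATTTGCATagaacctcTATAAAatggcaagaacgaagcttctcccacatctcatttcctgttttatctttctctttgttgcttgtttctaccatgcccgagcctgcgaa
H4c12, chr13:21750504-21750803, minus strand: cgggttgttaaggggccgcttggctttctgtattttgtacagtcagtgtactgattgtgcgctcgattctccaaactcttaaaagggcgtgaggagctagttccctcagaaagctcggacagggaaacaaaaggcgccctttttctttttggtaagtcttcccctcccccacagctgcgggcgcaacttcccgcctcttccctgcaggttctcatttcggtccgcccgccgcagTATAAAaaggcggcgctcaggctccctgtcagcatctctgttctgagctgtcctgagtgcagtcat
H1f5, chr13:21780576-21780875, minus strand: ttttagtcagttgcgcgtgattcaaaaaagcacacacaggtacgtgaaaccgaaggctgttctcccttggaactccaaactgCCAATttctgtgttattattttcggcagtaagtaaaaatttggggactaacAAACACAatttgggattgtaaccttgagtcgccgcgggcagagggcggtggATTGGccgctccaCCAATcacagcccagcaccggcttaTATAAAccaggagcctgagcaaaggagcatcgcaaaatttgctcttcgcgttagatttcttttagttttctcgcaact
H1f2, chr13:23738557-23738856, plus strand: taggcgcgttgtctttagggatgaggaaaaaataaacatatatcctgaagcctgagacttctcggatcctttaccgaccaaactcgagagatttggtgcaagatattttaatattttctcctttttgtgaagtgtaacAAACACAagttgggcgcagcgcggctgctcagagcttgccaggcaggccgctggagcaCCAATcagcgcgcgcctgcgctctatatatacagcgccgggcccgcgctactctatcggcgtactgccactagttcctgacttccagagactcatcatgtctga
H2bc18 and H2bc8 both carry the octamer and CCAAT letters. H4c12 carries neither, and has TATAAA.

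Detection on the 12 arrays ran from 38.3% to 41.9% of probes, and the median probe was read from 44 or 45 beads. Correlations across measured probes between arrays of a group were 0.995 to 0.997 for control pools, 0.990 to 0.996 for diabetic pools and 0.981 to 0.991 for NTD embryos. In the histone probes NTD embryo 4 lay apart from the other three, so values of that group are given with and without it. Control pools 3 and 4 and NTD embryos 3 and 4 had little male RNA: the Y-linked Kdm5d read 4.60 and 4.42 in those pools and 4.59 and 4.48 in those embryos, against 7.23 to 9.18 on the other 8 arrays (log2). No probe of the placenta and decidua, visceral yolk sac or maternal blood markers was measured, 0 of 8, 0 of 5 and 0 of 4. Of the embryo's own tissues, 3 of 3 primitive erythroid, 2 of 3 heart, 2 of 3 liver bud and endoderm, 1 of 3 somite and 1 of 3 endothelium markers were measured, and 0 of 3 neural tube and 0 of 2 limb markers. The somite marker Meox1 was higher in diabetic pools (log2 difference 0.37 ± 0.08 SE, limma adjusted p = 0.0418), and no marker passed in NTD embryos. At an unadjusted limma p under 0.05, NTD embryos against control pools had log2 differences of 0.39 and 0.54 at the 2 heart markers, 0.33 at Meox1 and -0.32 at the primitive erythroid marker Hba-x. The part of such shifts in tissue in the histone results was not tested.

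Most H2B and H4 probes, 5 of 12 H3 probes and 2 of 4 H1 probes were lower in diabetic pools than in control pools, and 2 of 20 H2A probes were. Of the 67 measured histone probes, 36 were lower (29 genes) and 3 were higher with a limma adjusted p under 0.05, and 28 did not pass. Over all 13876 probes, 1.10% were lower and 0.504% higher by the same rule. At an unadjusted p under 0.05, 43 histone probes were lower and 3 higher, against 6.83% and 6.17% of all probes. The median log2 difference of the 67 probes was -0.53, against 0.01 over all measured probes, and the differences ran from -1.73 to 0.44. The 36 lower probes had log2 differences of -0.50 to -1.73, at least 2-fold for 22 of them. Groups did not overlap, with every diabetic pool below every control pool, for 42 of the 67 probes, against 4.53% of all probes, and lay the other way round for 3, against 4.13%. The family drew attention through these falls in earlier work on the same arrays, so its counts describe it and are no independent evidence. With all 12 arrays in 1 fit, 15 probes were lower and 1 was higher, and in that fit without NTD embryo 4 the counts were 34 and 2. Without control pools 3 and 4, the pools with little male RNA, 27 probes were lower and 0 higher.

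**Figure D1:**
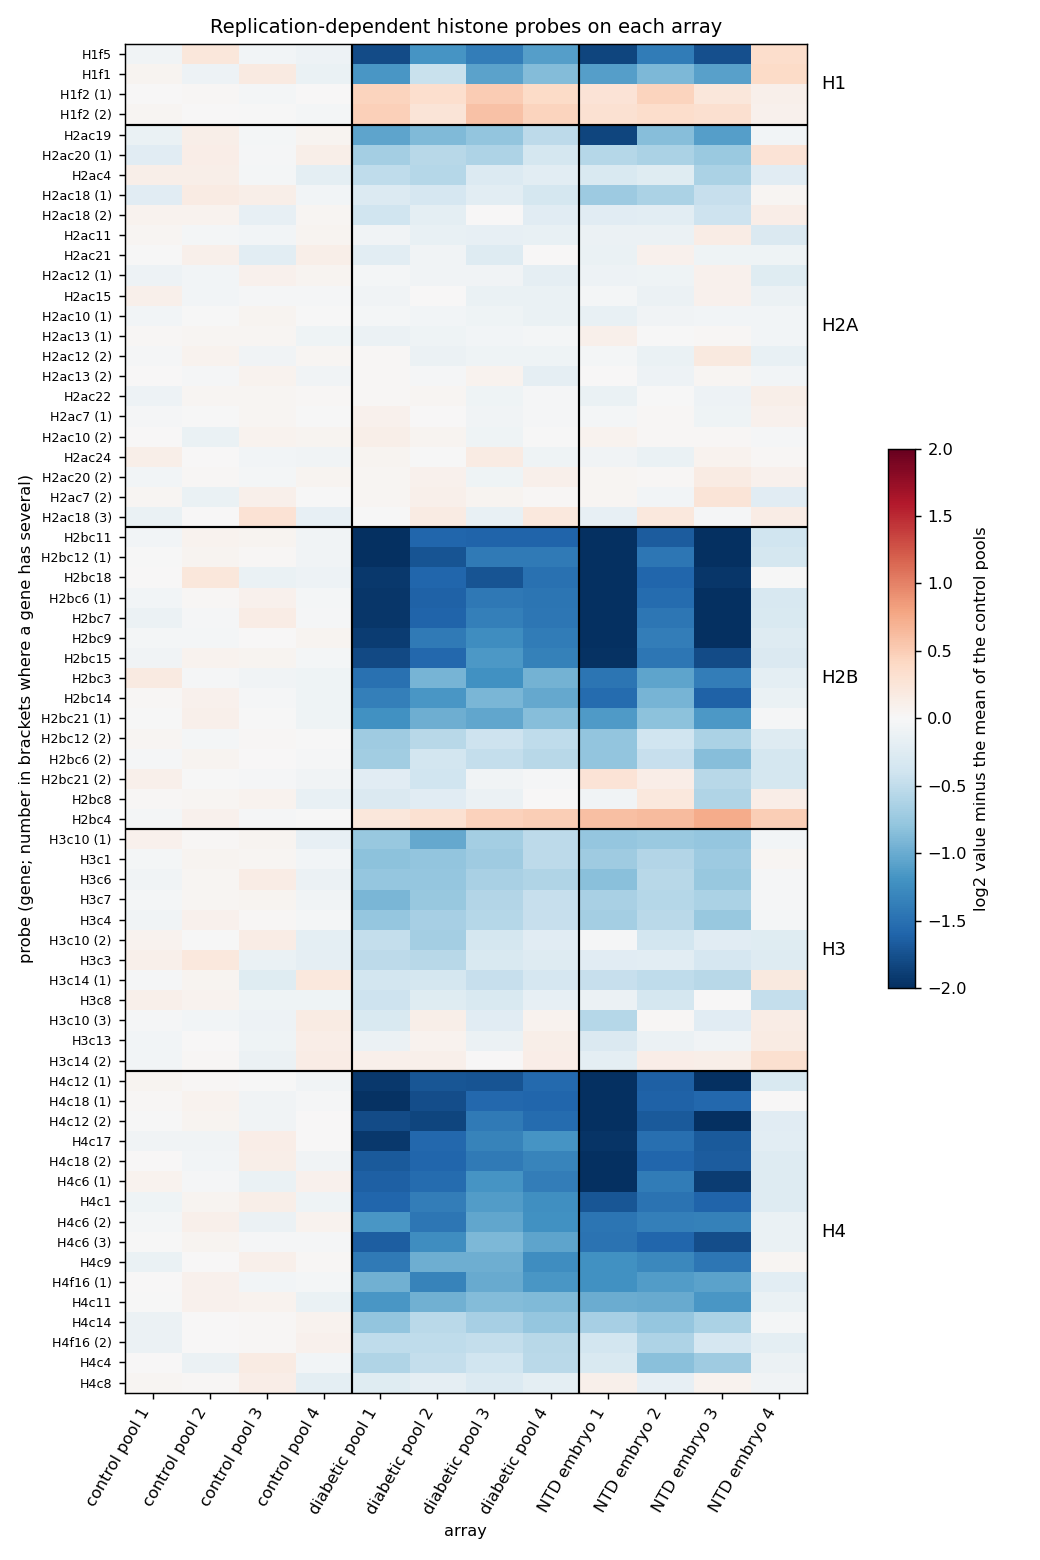
Heat map of the log2 value of each of the 67 histone probes on each of the 12 arrays minus that probe's mean over the control pools (blue lower, red higher, scale from -2 to 2), in rows by class and by the diabetic-minus-control difference. Most H2B and H4 rows (not H2bc4, H2bc8, 1 H2bc21 probe or H4c8) are blue in 4 of 4 diabetic pools and in NTD embryos 1 to 3, most H2A rows are pale throughout, and NTD embryo 4 is pale in nearly every row.

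H2B, which pairs with H2A on the outer faces of the nucleosome, had 12 of 15 probes lower, 1 higher and 2 not passed, with a median log2 difference of -1.15. H2bc11 read 10.51, 10.63, 10.61 and 10.49 (log2) in the control pools, 8.43, 8.98, 8.96 and 8.96 in the diabetic pools, and 8.23, 8.90, 8.27 and 10.16 in the NTD embryos. All 4 diabetic pools and NTD embryos 1 to 3 were below every control pool by over 1 log2 unit, and NTD embryo 4 was just below them. H2bc11 was 3.31-fold lower in diabetic pools (log2 difference -1.73 ± 0.12 SE, n = 4 and 4, limma adjusted p = 1.3e-05). Its intensity before any correction was 1557 to 1734 in control pools and 375 to 555 in diabetic pools. H2bc18, which sits in the chromosome 3 cluster, read 6.47, 6.70, 6.33 and 6.36 in the control pools, 4.53, 4.88, 4.74 and 4.98 in the diabetic pools, and 4.45, 4.87, 4.52 and 6.46 in the NTD embryos. It was detected on all 4 control pools, on no diabetic pool and on NTD embryo 4 alone of the NTD embryos. H2bc18 was thus at least 2.59-fold lower in diabetic pools (log2 difference -1.68 ± 0.11 SE, limma adjusted p = 1.24e-05). Its probe passed the detection rule almost only through the control pools, so nothing is read from this fall.

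H2bc7 read 10.09, 10.19, 10.35 and 10.18 in the control pools, 8.26, 8.60, 8.83 and 8.75 in the diabetic pools, and 7.90, 8.76, 8.12 and 9.90 in the NTD embryos. The brighter of the H2bc6 probes read 10.84, 10.91, 10.97 and 10.85 in the control pools, 8.95, 9.27, 9.47 and 9.43 in the diabetic pools, and 8.81, 9.35, 8.80 and 10.57 in the NTD embryos. Neither gene's pools overlapped, and the falls were 3.01-fold for H2bc7 (-1.59 ± 0.12 SE, limma adjusted p = 1.88e-05) and 3.06-fold for H2bc6 (-1.61 ± 0.11 SE, limma adjusted p = 1.24e-05). The other H2B genes with a lower probe were H2bc12 and H2bc21, described below with their further probes, and H2bc3, H2bc9, H2bc14 and H2bc15, which were named after their values were seen. H2bc8, the H2B probe nearest 0, read 6.93, 6.95, 6.97 and 6.76 in the control pools and 6.62, 6.69, 6.79 and 6.92 in the diabetic pools, ranges that overlap (-0.15 ± 0.08 SE, limma adjusted p = 0.486).

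H2bc4 was the exception among H2B genes. It read 7.36, 7.48, 7.38 and 7.39 in the control pools, 7.62, 7.70, 7.86 and 7.90 in the diabetic pools, and 8.00, 8.04, 8.14 and 7.90 in the NTD embryos. Every diabetic pool and every NTD embryo was above every control pool. The rise was 0.37 ± 0.08 SE on the log2 scale in diabetic pools (limma adjusted p = 0.0434) and 0.62 ± 0.08 SE in NTD embryos (limma adjusted p = 0.047). The first call was lost under 15 of 21 alternatives and the second under 12 of 20. As background, H2bc4 and H1f2 are among the histone genes whose transcripts can also carry a poly(A) tail in differentiated cells. The annotated span of H2bc4 is 8282 bases, and that of all but 3 of the 48 measured genes is 383 to 911 bases. The other longer spans are those of H2bc6 (37455 bases) and H2bc21 (2667 bases), which had 2 of 2 and 1 of 2 measured probes lower in diabetic pools. The part of a poly(A) tail or of the span in the H2bc4 rise was not tested. The second H2bc4 probe was detected on 0 arrays.

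H4, which forms the nucleosome's core tetramer with H3, had 15 of 16 probes lower and 1 not passed, with a median log2 difference of -1.21. H4c12 read 7.96, 7.92, 7.89 and 7.82 at one probe in the control pools, 5.96, 6.19, 6.18 and 6.34 in the diabetic pools, and 5.73, 6.26, 5.74 and 7.59 in the NTD embryos. Diabetic pools were below control pools by more than 1 log2 unit without exception, and the fall was 3.32-fold (-1.73 ± 0.09 SE, limma adjusted p = 3.2e-06). The other H4c12 probe fell by 1.65 on the log2 scale (± 0.10 SE, limma adjusted p = 6.97e-06). H4c18 read 7.54, 7.60, 7.46 and 7.50 at one probe in the control pools, 5.55, 5.76, 5.95 and 5.94 in the diabetic pools, and 5.31, 5.90, 5.96 and 7.54 in the NTD embryos. Its 2 probes fell by 1.73 and 1.50 on the log2 scale (± 0.09 SE each, limma adjusted p = 4.07e-06 and 6.97e-06).

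H4c1 read 9.51, 9.65, 9.71 and 9.52 in the control pools, 8.01, 8.21, 8.48 and 8.37 in the diabetic pools, and 7.88, 8.11, 8.00 and 9.34 in the NTD embryos. Its pools did not overlap, and it was 2.51-fold lower (-1.33 ± 0.10 SE, limma adjusted p = 2.52e-05). H4f16, the solitary H4 gene on chromosome 6, was detected by neither of its probes on any diabetic pool. It was at least 1.73-fold lower at one (-1.12 ± 0.09 SE, limma adjusted p = 3.12e-05) and at least 1.11-fold lower at the other (-0.52 ± 0.07 SE, limma adjusted p = 0.00267). Both H4f16 probes passed detection almost only through the control pools, so nothing is read from these falls. The other lower H4 genes, named after their values were seen, were H4c4, H4c6, H4c9, H4c11, H4c14 and H4c17. H4c8 did not pass (-0.22 ± 0.08 SE, limma adjusted p = 0.239), and no diabetic pool detected it.

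**Figure D2:**
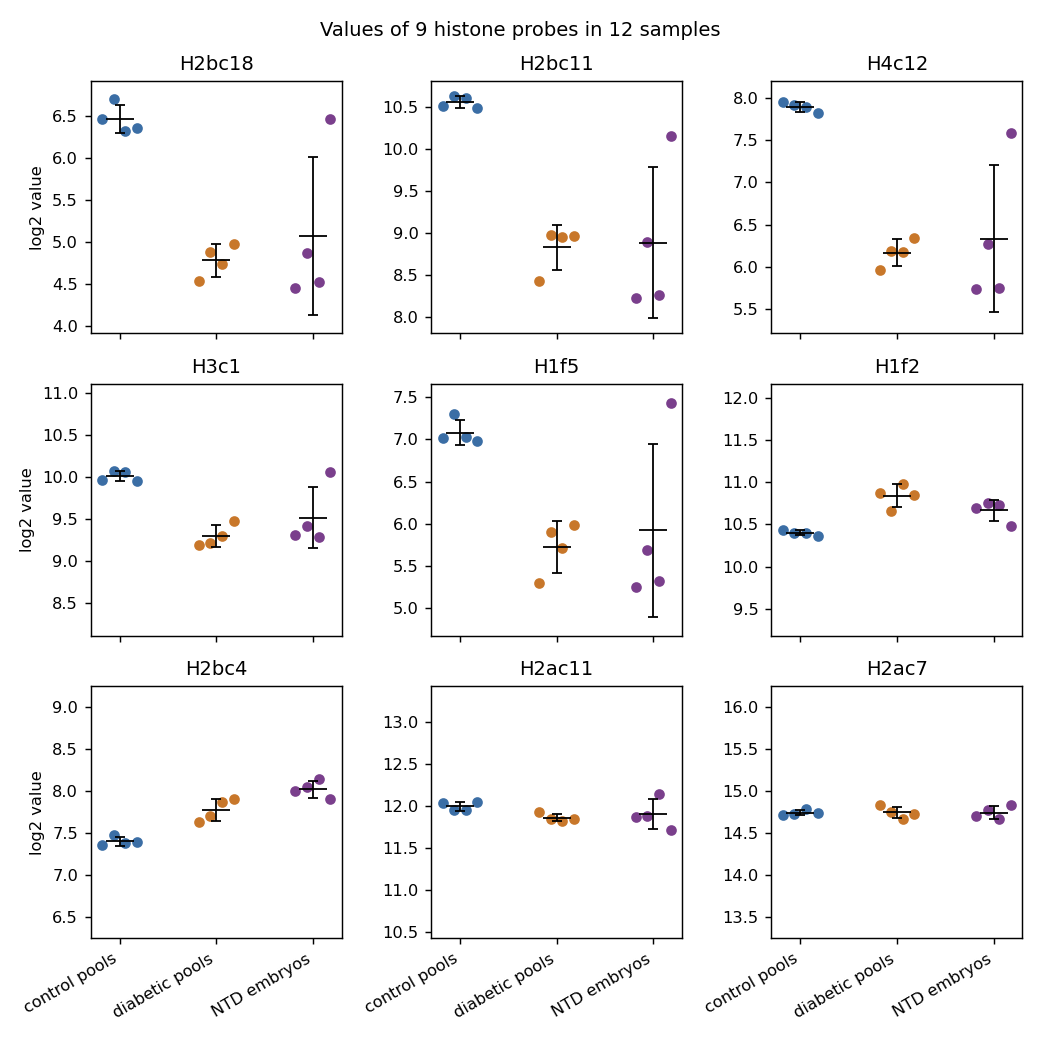
Log2 values of 9 histone probes in each of the 12 samples, with points for samples and black bars for the group mean ± SD (n = 4), every panel spanning 3 log2 units. H2bc18, H2bc11, H4c12, H3c1 and H1f5 have all 4 diabetic pools below all 4 control pools, H1f2 and H2bc4 have them above, and the H2ac7 points overlap. The H2bc18 probe passed detection almost only through the control pools, so nothing is read from its panel.

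H3, the partner of H4 in the core tetramer, had 5 of 12 probes lower, 0 higher and 7 not passed, with a median log2 difference of -0.42. H3c1 read 9.97, 10.07, 10.06 and 9.95 in the control pools, 9.19, 9.22, 9.30 and 9.48 in the diabetic pools, and 9.31, 9.42, 9.28 and 10.06 in the NTD embryos. Diabetic and control pools did not overlap, and NTD embryo 4 lay within the control range. H3c1 was 1.64-fold lower (-0.71 ± 0.08 SE, limma adjusted p = 0.000645). H3c6 (-0.70 ± 0.08 SE), H3c7 (-0.68 ± 0.10 SE) and H3c4 (-0.62 ± 0.08 SE) had log2 differences of the same size, with limma adjusted p of 0.000775, 0.00411 and 0.00231. The fifth lower H3 probe was 1 of the 3 of H3c10, a gene named after its values were seen, at 9.36, 9.30, 9.33 and 9.12 in the control pools and 8.52, 8.26, 8.60 and 8.76 in the diabetic pools (-0.75 ± 0.10 SE, limma adjusted p = 0.00346). The other H3c10 probes did not pass (-0.43 ± 0.11 and -0.09 ± 0.11 SE, limma adjusted p = 0.0803 and 0.809). H3c13, a chromosome 3 gene, read 12.74, 12.80, 12.71 and 12.93 in the control pools and 12.68, 12.86, 12.67 and 12.91 in the diabetic pools, with a log2 difference of -0.01 ± 0.08 SE (limma adjusted p = 0.973).

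The linker histones split by gene. H1f5 (the H1.5 subtype) read 7.01, 7.31, 7.03 and 6.98 in the control pools, 5.30, 5.89, 5.71 and 5.99 in the diabetic pools, and 5.24, 5.69, 5.32 and 7.44 in the NTD embryos. It was 2.57-fold lower in diabetic pools (-1.36 ± 0.14 SE, limma adjusted p = 0.000217), and NTD embryo 4 was above every control pool. H1f1 (H1.1) read 5.88, 5.71, 5.99 and 5.68 in the control pools and 4.64, 5.36, 4.74 and 4.95 in the diabetic pools, of which 1 detected it (-0.89 ± 0.14 SE, limma adjusted p = 0.00805). The H1f1 probe passed detection mainly through the control pools, so nothing is read from its fall. H1f2 (H1.2) went the other way, with 10.44, 10.40, 10.40 and 10.37 in the control pools, 10.87, 10.66, 10.98 and 10.85 in the diabetic pools, and 10.70, 10.76, 10.73 and 10.48 in the NTD embryos. Its probes were higher by 0.44 ± 0.08 and 0.42 ± 0.07 SE on the log2 scale (limma adjusted p = 0.0193 and 0.00977). H1f3 and H1f4 had no measured probe. The H1f2 probe with the higher difference lost its call under 9 of 21 alternatives.

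H2A had 2 of 20 probes lower and 18 not passed, with a median log2 difference of -0.08. H2ac19, in the chromosome 3 cluster, read 6.94, 7.19, 7.02 and 7.13 in the control pools, 6.02, 6.19, 6.29 and 6.55 in the diabetic pools, and 5.23, 6.22, 5.97 and 7.02 in the NTD embryos. Its pools did not overlap, and it was 1.75-fold lower (-0.81 ± 0.11 SE, limma adjusted p = 0.00254). The second lower H2A probe, 1 of the 2 of H2ac20, was undetected in diabetic pools and at least 1.19-fold lower (-0.55 ± 0.10 SE, limma adjusted p = 0.0179). That H2ac20 probe passed detection almost only through the control pools, so nothing is read from its fall. H2ac4 had a log2 difference of -0.39 ± 0.10 SE without overlap of the pools, but did not pass (limma adjusted p = 0.101). The brightest of the H2ac18 probes had a log2 difference of -0.29 ± 0.09 SE with overlapping pools (limma adjusted p = 0.169). H2ac11 read 12.03, 11.96, 11.95 and 12.05 in the control pools and 11.93, 11.85, 11.83 and 11.85 in the diabetic pools, a small separation that did not pass (-0.14 ± 0.07 SE, limma adjusted p = 0.424). The H2ac7 probe nearest 0 read 14.71, 14.73, 14.78 and 14.73 in the control pools and 14.83, 14.75, 14.67 and 14.72 in the diabetic pools (0.00 ± 0.07 SE, limma adjusted p = 0.996).

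Class and signal level went together. Of the 67 probes, 16 had a mean above 11.66, the 95th percentile of the mean log2 value of all measured probes, and 13 of these were H2A and 3 were H3. By limma's adjusted p 0 of the 16 were called (0 at an unadjusted p under 0.05), and their log2 differences ran from -0.14 to 0.09, with 10 of the 16 below 0 and a median of -0.02. Other genes' probes at that level were seldom called either, with 1 of 678 lower and 0 higher. The remaining 51 histone probes included all 36 lower and all 3 higher, with a median of -0.75. Within those 51, H2A had 2 of 7 probes lower (median -0.29), H3 had 5 of 9 (median -0.62), H2B 12 of 15 and H4 15 of 16. Spearman's rho of the difference with the mean log2 level was 0.49 over the 67 probes, which share the arrays and the scaling, and 0.004 over the 51. Of the 16, 7 exceeded a mean of 14, with raw intensities of 15913 to 31819 against array maxima of 29536 to 34940. The part of saturation or of several copies read by 1 probe in the H2A result was not tested. Probe sequences were not used here, so which copies a probe reads was not determined.

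**Figure D3:**
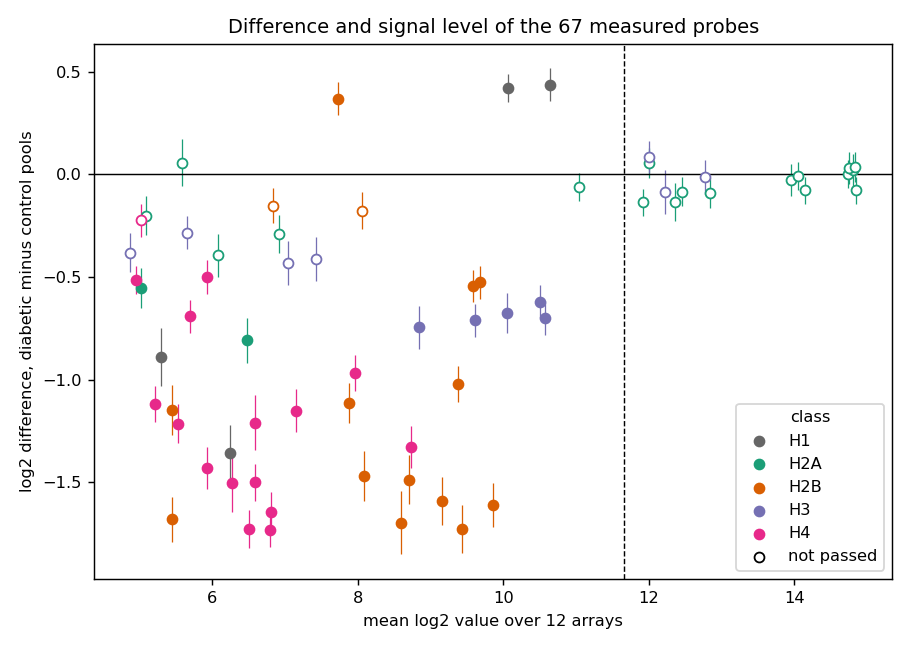
Log2 difference between diabetic and control pools (vertical, ± SE) against the mean log2 value over 12 arrays (horizontal) for the 67 histone probes, coloured by class, filled where the limma adjusted p is under 0.05 and open where it is not. The dashed line is the 95th percentile of all measured probes, 11.66, and the 16 probes beyond it, 13 H2A and 3 H3, lie between -0.14 and 0.09.

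H2A and H2B genes often lie head to head and share the DNA between their starts. Among the genes with a promoter window, which gives the strand, 6 such pairs had starts within 500 bases, and 4 had both genes measured, H2ac11 with H2bc11 (249 bases apart), H2ac12 with H2bc12 (178), H2ac15 with H2bc15 (164) and H2ac7 with H2bc7 (174). The H2B gene was lower in 4 of these 4 pairs and the H2A gene in 0 of 4. In the first pair the log2 difference was -0.14 for H2ac11 and -1.73 for H2bc11. In the last it was 0.00 and 0.06 at the H2ac7 probes and -1.59 for H2bc7. In 3 of the 4 pairs every H2A probe lay above the 95th percentile of signal, and in the fourth, H2ac12, 1 of 2 did. Of the unmatched pairs, H2ac8 was unmeasured beside H2bc8, and H2ac1 and H2bc1 were both unmeasured. A further 2 neighbours may be such pairs, but the H2B gene has no window and its strand was not determined here. H2ac20 lies 192 bases from H2bc21, both genes were measured, and each had 1 of 2 probes lower, while H2ac6, 240 bases from H2bc4, was unmeasured. The lower H2ac20 probe passed detection almost only through the control pools, so nothing is read from it here.

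Different probes of 1 gene did not always agree. Of the 16 genes with several measured probes, 6 had every probe lower, 3 had some but not all lower, and 7 had none. The widest gap was at H2bc12, with log2 differences of -1.70 ± 0.15 and -0.55 ± 0.08 SE (limma adjusted p = 8.44e-05 and 0.00424). The H2bc6 probes gave -1.61 and -0.53, both lower, on a gene whose annotated span of 37455 bases is the longest of the set. The H2bc21 probes gave -1.02 ± 0.09 SE (limma adjusted p = 5.54e-05) and -0.18 ± 0.09 SE (limma adjusted p = 0.449). All 4 H4 genes with several probes had every probe lower: H4c6, H4c12, H4c18 and H4f16. The H4f16 probes passed detection almost only through the control pools, so nothing is read from their agreement. Taking the brightest probe for each gene, 27 of 48 genes were lower and 2 higher, in the same fit of all probes.

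**Figure D4:**
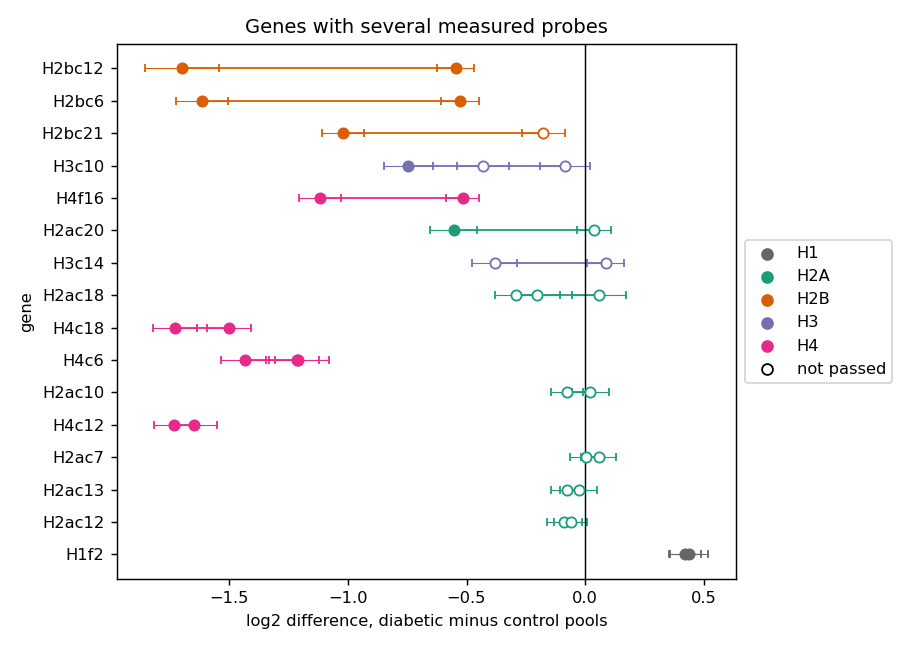
Log2 difference between diabetic and control pools (± SE) of every measured probe of the 16 histone genes with more than 1, joined by a line for each gene and ordered by the distance between its probes. H2bc12, H2bc6 and H2bc21 have the widest lines, and filled points have a limma adjusted p under 0.05.

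Falls were found in both chromosome 13 stretches and on chromosome 3. On chromosome 13, where 46 of the 56 genes lie in 2 stretches, 14 of 24 probes were lower in the stretch that holds H2bc11 and H4c12, and 15 of 27 were lower and 3 higher in the stretch that holds H2bc7, H4c1 and H1f2. On chromosome 3, with 9 genes, 5 of 14 probes were lower. The chromosome 6 gene, H4f16, passed detection almost only through the control pools, so nothing is read from its 2 lower probes. Class differed within a cluster. In the first chromosome 13 stretch 7 of 7 H4 and 5 of 5 H2B probes were lower and 0 of 8 H2A probes. On chromosome 3 the lower probes were 2 of 7 H2A, 2 of 3 H2B, 0 of 3 H3 and 1 of 1 H4. Among these, the H2bc18 probe and the lower H2ac20 probe passed detection almost only through the control pools, so nothing is read from them either.

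NTD embryos were next set against the same 4 control pools. Here 0 histone probes were lower by limma's adjusted p and 1, H2bc4, was higher, with 0.0216% and 0.0144% of all probes called. At an unadjusted p under 0.05, 38 were lower and 3 higher, with 4.85% and 5.09% of all probes. Groups did not overlap for 23 lower and 3 higher histone probes, against 2.67% and 3.21%. The median log2 difference was -0.47, and the median SD of a histone probe over the 4 arrays of a group was 0.34 for NTD embryos, 0.14 for diabetic pools and 0.09 for control pools. Over all probes the corresponding median SDs were 0.17, 0.13 and 0.11. H2bc11 had a log2 difference of -1.67 ± 0.35 SE (limma adjusted p = 0.165) and H4c12 of -1.57 ± 0.34 SE at the probe described above (limma adjusted p = 0.165).

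NTD embryo 4 differed from the other embryos of its group. Without it the median SD was 0.15, equal to that over all probes. The median difference of the 67 probes from the control mean was -0.64, -0.55, -0.64 and -0.06 in the 4 NTD embryos in order, against -0.69, -0.55, -0.47 and -0.47 in the diabetic pools and -0.05 to 0.04 in the control pools. For H2B the medians were -1.54, -1.06, -1.62 and -0.26 in the 4 embryos, and for H4 -1.47, -1.38, -1.51 and -0.17. Among the 36 probes lower in diabetic pools, embryo 4 was within the control range for 12 and above it for 3. It was between the control and diabetic ranges for 21. Embryos 1 to 3 were all below every control pool for 36 of 36. These probes were picked through high values of the same control pools, which favours that outcome, so nothing is read from the 36 of 36. Measured probes detected on the array numbered 54, 58, 57 and 65 in the NTD embryos, 58 or 59 in the diabetic pools and 65 to 67 in the control pools. Embryo 4 and embryo 3 both had little Kdm5d signal, and embryo 3 had low histone values. The part of embryo sex in the place of embryo 4 was not tested. Without embryo 4 the group of 3 had 34 histone probes lower and 1 higher by limma's adjusted p, against 0.332% and 0.108% of all probes, with a median of -0.62. In that fit H2bc11 had a log2 difference of -2.09 ± 0.15 SE (limma adjusted p = 4.3e-05). Embryo 4 was left out because of its values at these same probes, which favours such calls, so nothing is read from them.

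**Figure D5:**
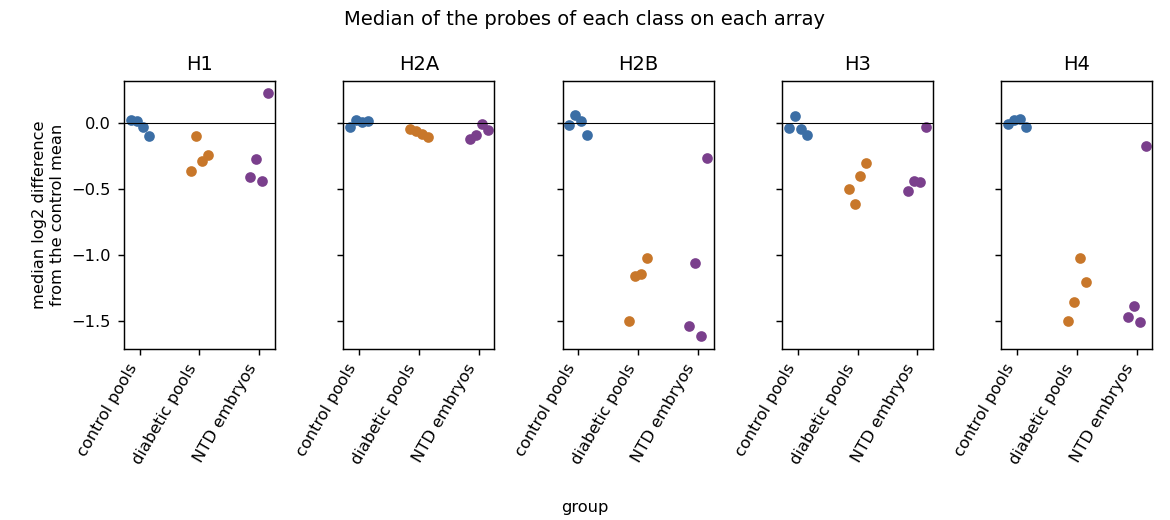
Median over the probes of each class of the log2 value minus the control mean, 1 point for each array, by group (4 H1, 20 H2A, 15 H2B, 12 H3 and 16 H4 probes). The H2B and H4 points of the 4 diabetic pools and of 3 NTD embryos lie at or below -1.02, the fourth NTD embryo lies at -0.26 and -0.17, and the H2A points stay between -0.12 and 0.02.

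Set against diabetic pools directly, NTD embryos had 0 of 67 histone probes called in either direction by limma's adjusted p, as had all 13876 probes (0.00%). At an unadjusted p under 0.05, 2 histone probes were higher and 0 lower, against 1.66% and 1.25% of all probes, and these 2, H2bc4 and H4c8, were also the 2 whose groups did not overlap, higher in NTD embryos (1.14% of all probes, and 0.685% lower). H4c8 was undetected in every diabetic pool and in most NTD embryos, so its separation is between values near background and nothing is read from it. The median log2 difference of the 67 probes was 0.06. H2bc4 had a log2 difference of 0.25 ± 0.10 SE (limma adjusted p = 0.997). Without embryo 4 the count was again 0 in both directions.

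The detection rule had little room at its edge. Of the 67 measured probes, 54 were detected on 12 arrays, and 26 of these were lower and 3 higher in diabetic pools. The 13 detected on fewer arrays had 10 lower, and a probe that passes detection mainly through the control pools had to differ, so nothing is read from their count. Just inside the rule, H4c8 was detected on 3 control pools and 1 NTD embryo, and the dimmer H4f16 probe on 4 control pools. Just outside, H2ac1 was detected on 3 arrays, 2 of them diabetic pools, and H4c3 on 2 control pools. H4c3 read 4.89, 5.15, 5.08 and 4.85 in the control pools and 4.52 to 4.66 in the diabetic pools, and H2ac1 4.99 to 5.03 and 4.82 to 5.29. Of the 19 probes left out, 13 were detected on 0 arrays and 6 on 1 to 3.

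No gene passed the test in lists of genes that make, process or use histones. Over all 13876 probes 1.10% were lower and 0.504% higher in diabetic pools by the adjusted p. At an unadjusted p under 0.05 the shares were 6.83% and 6.17%. Lists this short would hold few or no calls at the adjusted shares, so nothing is read from their absence. Of the histone transcript synthesis and processing genes, which include the transcription coactivator Npat, 26 of 42 were measured, with 0 lower and 0 higher in diabetic pools (limma adjusted p), 2 lower and 4 higher at an unadjusted p under 0.05, and a median log2 difference of -0.02. Ccne2, the cyclin E2 that drives entry into S phase, read 9.37, 9.22, 9.17 and 9.20 in the control pools and 8.92, 8.83, 8.71 and 9.08 in the diabetic pools, with no overlap, and did not pass (-0.35 ± 0.09 SE, limma adjusted p = 0.0833). Mif4gd, which links Slbp-bound transcripts to translation, had a log2 difference of 0.30 ± 0.10 SE (limma adjusted p = 0.195), and Wdr33, a cleavage and polyadenylation subunit, of -0.19 ± 0.07 SE (limma adjusted p = 0.243). Slbp itself had no annotated probe used here.

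Of the S-phase genes 17 of 35 were measured, and 0 were called in either direction, with 1 lower and 1 higher at an unadjusted p under 0.05 and a median of 0.01. The licensing factor Cdt1 had a log2 difference of 0.20 ± 0.08 SE (limma adjusted p = 0.312), and the replication fork proteins Gins3 and Gins1 of -0.16 ± 0.07 and 0.13 ± 0.08 SE (limma adjusted p = 0.347 and 0.526). Of the replacement histones, which are made outside S phase too from transcripts with a poly(A) tail, 10 of 11 were measured and 0 called, with 0 lower and 1 higher at an unadjusted p under 0.05 and a median of 0.05. The linker variant H1f10 had a log2 difference of 0.25 ± 0.10 SE, H2aj of -0.14 ± 0.08 SE and the H3.3 gene H3f3b of 0.11 ± 0.07 SE (limma adjusted p = 0.279, 0.485 and 0.555).

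Of the histone chaperones 14 of 19 were measured and 0 called, with 0 in either direction at an unadjusted p under 0.05 and a median of 0.02. Nasp, which holds H3 and H4 in reserve, had a log2 difference of -0.10 ± 0.07 SE, Chaf1a, a subunit of the replication-coupled assembly factor, of 0.14 ± 0.09 SE, and Daxx, an H3.3 chaperone, of 0.14 ± 0.12 SE (limma adjusted p = 0.589, 0.591 and 0.701). Of the mitosis genes 12 of 20 were measured and 0 called, with 0 lower and 1 higher at an unadjusted p under 0.05 and a median of -0.05. Aurkb, Bub1b and Cdc20, a mitotic kinase, a spindle checkpoint kinase and an activator of the anaphase-promoting complex, had log2 differences of 0.15 ± 0.07, 0.13 ± 0.07 and 0.14 ± 0.08 SE (limma adjusted p = 0.367, 0.486 and 0.496). The counts of all these lists were also 0 in both directions by limma's adjusted p in the comparisons with NTD embryos, where the unadjusted counts were at most 2 for any list in one direction. Over all probes the adjusted shares were 0.0216% lower and 0.0144% higher against control pools and 0 against diabetic pools. The unadjusted shares were 4.85% lower and 5.09% higher against control pools, and 1.25% and 1.66% against diabetic pools.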

How the data were processed

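RNA of 12 samples was read on a mouse Illumina expression BeadChip, 1 array for each sample. The intensity of each probe is the mean over its beads, deposited by the authors without background correction or scaling, per the file headers; the submitters' processing notes name GenomeStudio. The detection p-value of each probe and array was deposited beside it, per the file headers. The deposited bead numbers, another column, were used to describe the arrays. The authors' value table, deposited as intensity after a normalization that is not given in the sources used here, served as an alternative.

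In limma 3.58.1 (R 4.3.3), neqc used the detection p-values to correct the background, then an offset of 16, quantile scaling and log2 were applied. The 13876 probes that passed the detection rule entered lmFit and eBayes for each pair of groups, with 8 arrays a fit, two-sided, without covariates, with Benjamini-Hochberg adjustment over all 13876 probes and a threshold of 0.05. The fit was tested on simulated data. Symbols came from the platform annotation, updated to GRCm38.p6 names through Entrez identifiers.

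The members and lists were chosen with earlier results of these data known. Named genes were, in each class, the 4 with the smallest p at their brightest probe in diabetic against control pools and the member nearest 0, members called higher or called in NTD embryos, the 3 genes whose probes differed most, the probes nearest the detection rule, and 3 genes of each list; other names were chosen after their values were seen. Where no array of a group detected a probe, the fold is a bound: "at least N-fold" sets the bright group's mean against a floor for each array, its dimmest detected signal or the probe's value if that was higher. Precision is limited by 4 arrays in each group. Probe signals were ranked to describe how bright a probe was and to pick a gene's brightest, not to compare transcript levels between genes.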

Additional observations from a re-analysis of the deposited data

Results flagged for a closer look

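Of 123 groups of 4 arrays examined (each named probe, and each class median, in each group), 10 held 1 array whose gap to its nearest neighbour exceeded Dixon's 95% critical value for 4 values, and chance gives about 1 in 20. In 7 of the 10 that array was NTD embryo 4, always on the high side. It read 6.202 for H1f1 (others 4.719 to 4.913), 10.41 for H3c7 (9.785 to 9.856), 9.343 for H4c1 (7.88 to 8.115) and 5.671 for the brighter H4f16 probe (4.666 to 4.816). Its median difference from the control mean was -0.06437 over all 67 histone probes (others -0.6416 to -0.5509), -0.02478 over the H3 probes (-0.5159 to -0.4364) and -0.1706 over the H4 probes (-1.509 to -1.384).

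The other 3 arrays lay apart in 1 probe each. Control pool 2 read 7.306 for H1f5, where the other control pools read 6.977 to 7.028. Control pool 3 read 5.053 for the dimmest H2ac18 probe, against 5.251 to 5.28. Diabetic pool 1 read 8.431 for H2bc11, against 8.959 to 8.977 in the other diabetic pools.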

How the results depend on the processing

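The 36 histone probes lower in diabetic pools became 15 with all 12 arrays in 1 fit, 34 in that fit without NTD embryo 4 (an alternative chosen after seeing the data), and 26 to 39 under the other alternatives, 35 to 37 when each array was left out in turn. The 3 higher probes became 1 with median scaling, 1 with all 12 arrays in 1 fit, 0 with the replicate block and 0 without control pools 3 and 4, and leaving out each array gave 1 to 2. Their median log2 difference of -0.53 became -0.3436 without background correction, -0.3448 with an offset of 50, -0.6711 from the authors' value table, -0.4214 for probes detected on 12 arrays and -0.6485 with 1 probe for each gene. For NTD embryos against control pools, the 0 lower probes became 1 with all 12 arrays in 1 fit, 22 with array weights and 34 without embryo 4 (0 to 34 over arrays left out in turn). The 1 higher probe, H2bc4, became 0 under median scaling, 0 with the authors' value table, 0 with cyclic loess, 0 with no filter on detection, 0 with the replicate block and 0 without control pools 3 and 4, and leaving out each array gave 0 to 1. The counts between NTD embryos and diabetic pools were 0 throughout. Apart from the fits without an array, the cause of these shifts was not tested. Of 25 named probes called in diabetic against control pools, 8 kept their call under every alternative, 17 lost it under at least 1, and 0 changed sign. Of 10 named probes not called, 9 stayed so under every alternative, and 2 near 0 changed sign, H3c13 and an H2ac7 probe. From the authors' value table H2bc18 (limma adjusted p = 0.0724), H1f1 (0.0996) and the brighter H4f16 probe (0.106) did not pass, nor did H2bc4. In no comparison did all 4 pairs of arrays of equal replicate number correlate above 0.1 in their deviations (r from -0.25 to 0.07 between diabetic and control pools, 0.003 to 0.26, with 3 of 4 above 0.1, between NTD embryos and control pools, and -0.19 to 0.28 between NTD embryos and diabetic pools), so the numbers were not used as pairs. A slide block was not run, since the files name no slide. Dim probes near background limit what fold can be read. The brightest probes lay near the array maxima, and whether saturation limits their fold was not tested.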
